A study of Mus musculus with 6 samples.

Results

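The subunits of the mitochondrial respiratory chain and of ATP synthase were compared between sorted MC38 tumour cells from DT-treated and PBS-treated mice. The set was defined by name, as 57 nuclear genes of complexes I to V and cytochrome c, and every probe annotated to them was taken. The array has probes named for 19057 genes. A probe was named for 53 of the 57, with none named for Uqcrb, Cox7c, Cox8a and Atp5g1. Ndufs1, Sdha and Uqcrfs1 had 4 probes between them, none above background on any array. The other 50 genes were measured, and all 50 lay above background on all 6 arrays, so that no member entered through the group in which it was high.

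MC38 is a mouse colon carcinoma cell line. It was injected into the spleen of CD11bDTR transgenic mice, from where the cells seed the liver. The 3 DT samples came from such mice given diphtheria toxin intraperitoneally on days 7 and 9, and the 3 PBS samples from such mice given PBS on the same days. Livers were taken on day 10, the MC38 cells were sorted from them, and each RNA sample went onto 1 Illumina mouse bead array. All 6 samples carry the transgene, which is named for the CD11b promoter, active in myeloid cells, and for a diphtheria toxin receptor, and no mice without it were compared. Mouse strain, mouse age, the sort gate and how many mice gave a sample are not stated in the labels. Nor do they say that replicates came from separate mice, so the p-values cover only the variation among these 6 samples, part or all of which may be technical.

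The respiratory chain passes electrons from NADH and succinate to oxygen and pumps protons across the inner mitochondrial membrane. Complex I takes electrons from NADH and complex II from succinate, complex III hands them through cytochrome c to complex IV, and complex V, the ATP synthase, uses the proton gradient to make ATP. Most subunits are encoded in the nucleus and imported, while a small core set is encoded by mitochondrial DNA, so that each complex except complex II is assembled from products of both genomes.

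Mean signals were 363.1, 503.1 and 436.4 on the DT arrays and 473.1, 311.3 and 449.2 on the PBS arrays, with 36.7% to 40.6% of the array's 45281 probes above background. PBS replicate 2 was the dimmest array. Epithelial markers, taken as a check on the cell label, were largely not above background: Epcam, Krt18, Krt19, Krt20, Vil1 and Cdx2 were on no array, and Cdh1, Krt8 and Cldn7 were measured. The hepatocyte genes Alb, Apoa1, Apob, Serpina1a, Fgb, Cps1, Cyp2e1, Cyp3a11 and Ahsg were also on no array. Macrophage and monocyte markers had a median DT minus PBS difference of −0.79 on the log2 scale over 12 measured of 20 listed genes, and their mean per array, relative to the PBS mean, was −0.81, −0.83 and −0.61 in DT against 0.30, 0.36 and −0.65 in PBS. PBS replicate 3 thus lay near the DT arrays. Without it the median was −1.20 and 6 markers passed as lower (limma), beside 0.696% of all genes. None did in the main setting with all arrays. Without PBS replicate 2 the median was −0.55 with 0 past. With no background correction it was −0.41 with 3 past (3.10% of all genes lower). A normexp offset of 50 and the deposited values also gave 3 (3.93% and 1.71% of all genes lower), and an intensity trend gave 5 (4.38%). Itgam, which encodes CD11b itself, lay above background on no array, and so did Cd163, Clec4f, Timd4 and Ccr2.

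Most subunits differed little after DT. Of the 50 measured members, 1 passed the test as higher in DT, Sdhd of complex II, and 1 as lower, Uqcrq of complex III by a single probe (limma, Benjamini-Hochberg adjustment over 9483 genes, adjusted p under 0.05). Over all genes 1.09% passed, 0.327% higher and 0.759% lower. At an unadjusted p under 0.05 there were 12 of the 50 members with higher and 1 of the 50 with lower values in DT, beside 12.0% and 11.9% of all genes. The difference was positive in 38 of 50 members and in 51.3% of all genes, and its median was 0.16 in the members beside 0.01 over all genes. The 3 DT values lay above all 3 PBS values in 15 of the 50 members, beside 15.0% of all genes. They lay below them in 3 of the 50 (14.0% of all genes, 28.9% in either direction). The 95% confidence interval of the difference stayed within 2-fold either way for 47 of 50 members (88.1% of all genes) and within 1.5-fold for 26 (41.3% of all genes). In sorted cells taken as a bulk sample, fewer cells of a type and less RNA per cell cannot be told apart.

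**Figure D1:**
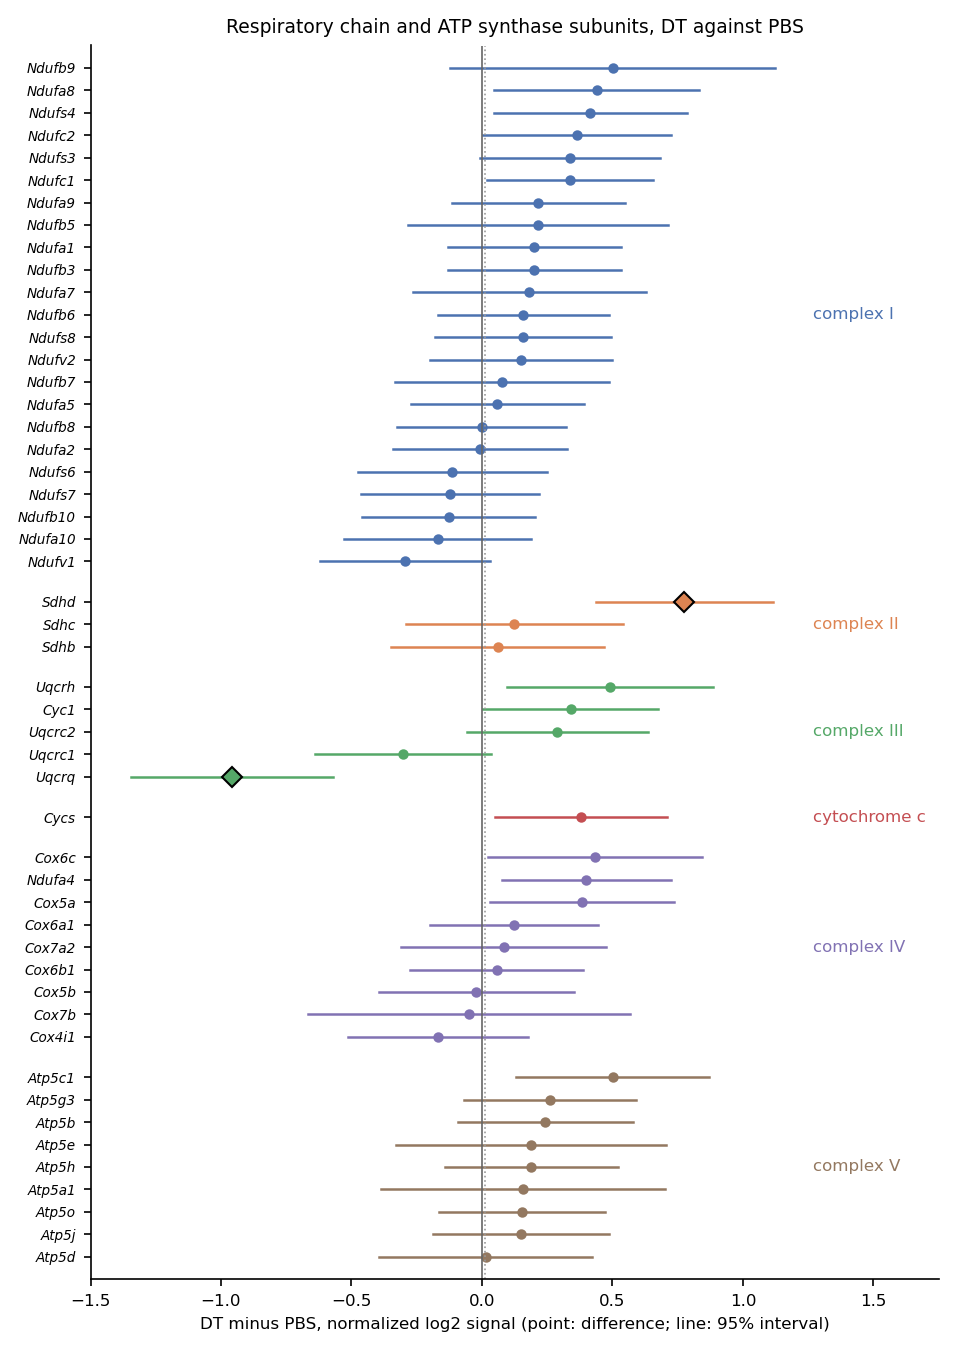
DT minus PBS difference of each of the 50 measured subunits, in normalised log2 signal, with its 95% confidence interval as a line, ordered by complex. Diamonds mark Sdhd (0.78) and Uqcrq (−0.96), which passed the test; the dotted line is the median of all genes, 0.01, and most points lie to its right.

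Complex II, succinate dehydrogenase, is the enzyme shared by the citric acid cycle and the chain. Sdhd, which encodes one of its membrane anchors, was the member that rose. Its normalised log2 signal was 9.11, 9.46 and 9.25 on the DT arrays, against 8.50, 8.51 and 8.48 on the PBS arrays. The groups did not overlap, and the 3 PBS arrays lay within a narrow band. Means were 9.27 ± 0.18 in DT and 8.50 ± 0.019 in PBS (SD, n = 3 each), a difference of 0.78 (SE 0.15), or 1.71-fold with a 95% interval of 0.44 to 1.11 on the log2 scale (limma, adjusted p = 0.0462). Before normalisation the probe, ILMN_1239143, gave signals of 526.6, 1065 and 754.6 in DT and of 590.2, 313.4 and 500.7 in PBS, and these did overlap. The call was lost in 8 of the 15 alternatives, 5 of which leave out an array; without PBS replicate 1, 2 or 3 or DT replicate 1 or 2 the adjusted p lay between 0.0602 and 0.235, and over all alternatives between 0.00784 and 0.582.

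The other anchor, Sdhc, did not pass. It had 10.64, 10.37 and 10.16 in DT and 10.29, 10.00 and 10.51 in PBS, with the groups overlapping and a difference of 0.12 (SE 0.19, adjusted p = 0.724 in limma). Sdhb, the iron-sulfur subunit, gave 0.06 (adjusted p = 0.872). Sdha, the flavoprotein that holds the active site, was not above background, so no difference is given for it.

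Sdhd lies back to back with Timm8b, which encodes a small chaperone for import into the mitochondrial inner membrane. The bases between the start sites of Sdhd and its neighbour are shown because they flank the member that rose, and those of Uqcrh and Cycs because each also holds a match to a motif of a factor known to act on respiratory genes. All come from RefSeq (GRCm38.p6), read 5′ to 3′ on the minus strand and ending at the base before the member's start, at chr9:50603850-50603900 for Sdhd, chr4:116075071-116075268 for Uqcrh and chr6:50566570-50566642 for Cycs. Capitals mark CCGGAAG, the core of ETS factors such as GABP, read on the other strand in Sdhd and Uqcrh, and GCATGCGC of NRF1 in Cycs.
Sdhd: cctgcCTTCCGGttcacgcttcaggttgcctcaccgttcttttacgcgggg
Uqcrh: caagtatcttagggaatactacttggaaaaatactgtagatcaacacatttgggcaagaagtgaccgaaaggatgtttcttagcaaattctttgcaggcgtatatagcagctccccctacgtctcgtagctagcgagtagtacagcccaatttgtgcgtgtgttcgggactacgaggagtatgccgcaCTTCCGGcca
Cycs: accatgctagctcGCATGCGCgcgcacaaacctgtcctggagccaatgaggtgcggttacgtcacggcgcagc

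The match begins 46 bases before the start of Sdhd, 10 before that of Uqcrh and 60 before that of Cycs. The 250 bases before the starts of Ndufs4, Ndufa4 and Atp5c1, the smallest p-values of complexes I, IV and V, were also read. They held no match to the motifs searched. Timm8b, 52 bases from Sdhd start to start, had 10.96, 10.92 and 10.86 in DT and 10.75, 10.88 and 10.85 in PBS. Its difference was 0.09 (SE 0.14, 95% interval −0.23 to 0.40, adjusted p = 0.740 in limma), and the groups overlapped. The difference of Sdhd, chosen here because it passed, was 0.78. The gap between the pair, Sdhd minus Timm8b, was 0.69 (exact permutation test over 20 splits of the arrays, p = 0.1). No smaller p was possible with these arrays, so the test cannot decide whether the pair differs. Within 1000 bases, 15 members had such a neighbour, and both genes were measured in 10 pairs. Both differences were positive in 5 pairs and the neighbour's was negative in the other 5, and no neighbour passed. Uqcrh and Lrrc41 gave 0.49 and 0.64, a gap of −0.15 (exact permutation test over 20 splits of the arrays, p = 0.5). Atp5c1 and Kin gave 0.50 and −0.15, Ndufa4 and Phf14 gave 0.40 and −0.15, and Atp5j and Gabpa gave 0.15 and −0.37.

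The motifs were searched on both strands in the 250 bases before each RefSeq start, which gave 51 windows for 46 of the 57 members. Uqcrq, Sdhc, Cyc1, Uqcrc2, Cox4i1, Cox6c, Atp5a1, Ndufs1, Ndufa2, Ndufb9 and Uqcrb had no window here. The ETS core CCGGAAG occurred in 10 of 51 windows (19.6%), beside 8.98% of the windows of protein-coding genes. GCATGCGC occurred in 4 (7.84%, beside 2.93%), the YY1 core AAGATGGC in 1 (beside 318 of the 21263 protein-coding windows), and AAGGTCA, the core bound by ERR receptors, in 1 (1.96%, beside 3.59%). The 10 genes with the ETS core were all measured, Sdhd and Uqcrh among them, and their DT minus PBS differences were all positive, from 0.06 to 0.78 with a median of 0.17. The other 31 measured genes with a window had a median of 0.16, with 22 positive. These letters are a description of the windows and were not measured for binding.

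Complex III held differences of both signs. Of its 5 measured subunits, 3 had positive and 2 negative differences, and the median (0.29) and the mean (−0.03) differ in sign. Uqcrq, which encodes the small ubiquinone-binding subunit VIII, was the member whose probe fell. It had 8.25, 8.48 and 8.72 on the DT arrays, against 9.47, 9.26 and 9.61 on the PBS arrays, with no overlap. The difference was −0.96 (SE 0.17, 95% interval −1.35 to −0.57), or 0.514-fold (limma, adjusted p = 0.0459), from means of 8.49 ± 0.24 in DT and 9.44 ± 0.18 in PBS (SD, n = 3 each). Before normalisation the signals of the probe, ILMN_1252263, were 340.1, 592.3 and 560.0 in DT and 1024, 443.8 and 952.8 in PBS, so that the dim PBS replicate 2 lay within the DT range. A second Uqcrq probe, the one annotated to the RefSeq mRNA where the first is annotated to a cDNA clone, was above background on 1 PBS array and on no DT array, and gave no second measurement. The target sequence of the probe that fell was not analysed here, and RefSeq lists Uqcrb, another complex III subunit, as a synonym of Uqcrq, so the value is given for this probe rather than for Uqcrq mRNA as a whole. The call was lost in the same number of alternatives as that of Sdhd, and without the same 5 arrays (adjusted p from 0.0554 to 0.224), with adjusted p between 0.0042 and 0.807 over all of them.

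Uqcrh, the hinge protein between cytochrome c1 and cytochrome c, had the largest positive difference of complex III. Its values were 12.62, 12.78 and 12.23 in DT and 12.18, 11.93 and 12.06 in PBS, close together but without overlap. The difference of 0.49 (SE 0.18) did not pass (adjusted p = 0.139 in limma). Cyc1, which encodes cytochrome c1 itself, gave 0.34 (SE 0.15, adjusted p = 0.205), also without overlap. The core proteins, which form the matrix-facing base of the complex, differed in sign: Uqcrc1 gave −0.30 (adjusted p = 0.254) with all DT values below the PBS values, and Uqcrc2 gave 0.29 (adjusted p = 0.289). Neither passed. The Rieske protein Uqcrfs1 was not above background.

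Cycs encodes the soluble cytochrome c that shuttles electrons between complexes III and IV. Its brightest probe had 10.70, 10.74 and 10.57 in DT and 10.30, 10.15 and 10.41 in PBS. The groups lay apart, and the difference of 0.38 (SE 0.15) did not pass (adjusted p = 0.162 in limma). The other Cycs probes gave 0.13 and −0.34, so that the gene's direction depends on the probe.

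**Figure D2:**
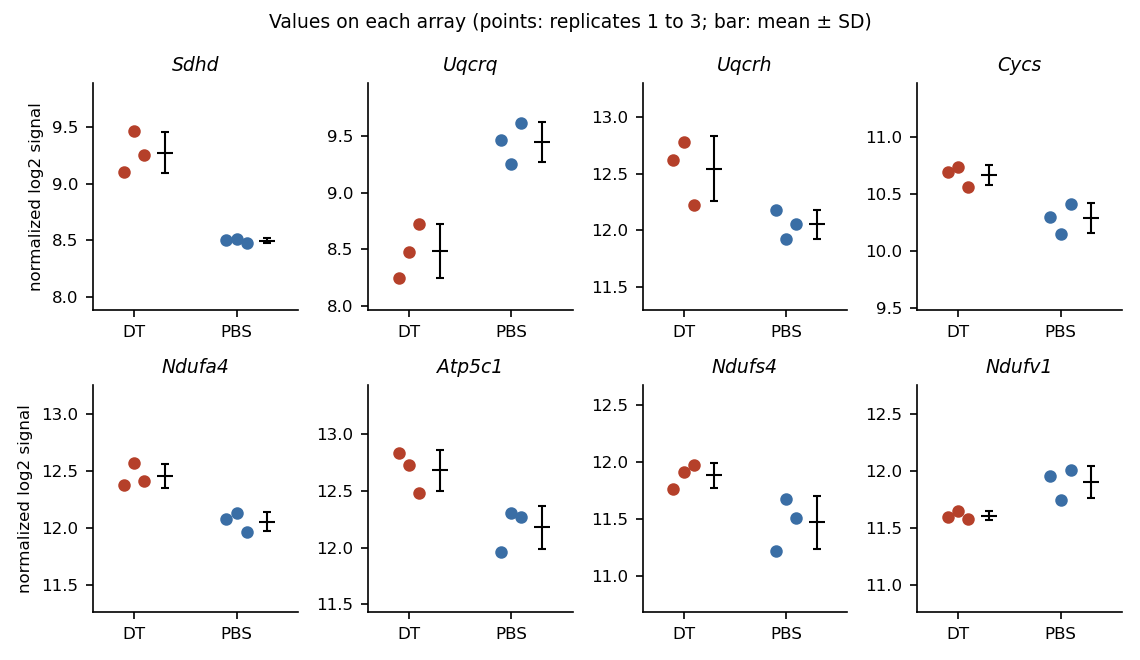
Normalised log2 signal on each array (points, 3 DT left and 3 PBS right) for 8 subunits, with mean ± SD beside them; every panel spans the same 2 log2 units around its own centre. Sdhd lies higher and Uqcrq lower in DT without overlap, and the shifts of the other 6 are smaller relative to their spread.

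Complex I, the largest complex, had 23 of its 24 listed subunits measured. None passed the test (limma, where 4 had an unadjusted p under 0.05, all with positive differences, beside 12.0% of all genes). Their differences ran from −0.29 to 0.50 with a median of 0.16, and 16 were positive. The medians were 0.15 over 5 core subunits of the matrix arm, which carry the NADH site and the iron-sulfur clusters, 0.12 over 6 accessory subunits of that arm and 0.20 over 12 accessory subunits of the membrane arm.

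Among core subunits, Ndufv1, which holds the NADH-binding site, lay lower in DT without overlap, with 11.59, 11.65 and 11.58 in DT against 11.95, 11.74 and 12.01 in PBS. Its difference was −0.29 (SE 0.15, adjusted p = 0.250 in limma). Ndufs3, another core subunit of the matrix arm, lay the other way without overlap (0.34, adjusted p = 0.218). Ndufs7 (−0.12), Ndufs8 (0.16) and Ndufv2 (0.15) had overlapping groups.

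The smallest p-values of complex I belonged to accessory subunits. Ndufs4, a late-assembled subunit whose loss in mice gives a Leigh-like encephalopathy, had 11.76, 11.91 and 11.98 in DT and 11.22, 11.68 and 11.51 in PBS. The groups lay just apart, by a difference of 0.41 (SE 0.17, adjusted p = 0.169 in limma), and all 4 of its probes had positive differences. Ndufa8 had 11.45, 11.38 and 11.01 in DT and 10.68, 10.78 and 11.06 in PBS, overlapping between DT replicate 3 and PBS replicate 3 (0.44, SE 0.18, adjusted p = 0.170). Its second probe gave 0.70 (adjusted p = 0.0605 over all probes). Ndufc1 (0.34), Ndufc2 (0.36) and Ndufa9 (0.22) also lay apart without passing.

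Ndufb9 had the largest positive difference of complex I, 0.50, and a wide spread (SE 0.28). PBS replicate 2 stood at 10.57, above all DT arrays (10.43, 10.37 and 10.18), while the other PBS arrays were at 9.32 and 9.59. The same pattern recurred: 9 members had a PBS standard deviation above 0.3, a line drawn after the values were seen, and in all 9 PBS replicate 2 was the highest PBS array. They were Ndufb9, Ndufb5, Ndufa7, Sdhb, Cox6c, Cox7b, Atp5a1, Atp5d and Atp5e. Over all genes, PBS replicate 2 was highest in 41.0% of the 2392 with so wide a PBS spread.

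Complex IV, cytochrome c oxidase, reduces oxygen to water. Of its 11 listed nuclear subunits 9 were measured, with a median of 0.08 and 6 positive. None passed (limma, where 3 had an unadjusted p under 0.05, all positive, beside 12.0% of all genes). Ndufa4, which bears a complex I name but was later assigned to complex IV, had 12.38, 12.57 and 12.41 in DT and 12.08, 12.13 and 11.96 in PBS. The groups lay apart by 0.40 (SE 0.15, adjusted p = 0.140). Cox5a had 12.14, 12.05 and 11.95 in DT and 11.45, 11.83 and 11.71 in PBS, also apart (0.38, SE 0.16, adjusted p = 0.179).

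The remaining subunits of complex IV overlapped between the groups. Cox6c had a difference of 0.43 (SE 0.18, adjusted p = 0.191 in limma), with PBS replicate 2 inside the DT range. Cox4i1, the ubiquitous form of the regulatory subunit that binds ATP, gave −0.17 (adjusted p = 0.535). Cox6a1 (0.12), Cox6b1 (0.06), Cox7a2 (0.08), Cox7b (−0.05) and Cox5b (−0.02) were closer to 0.

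Complex V had 9 of 10 listed subunits measured, and all 9 differences were positive, with a median of 0.19. None passed (limma, where 1 had an unadjusted p under 0.05, with a positive difference, beside 12.0% of all genes). Atp5c1, the gamma subunit that turns inside the catalytic head, had 12.84, 12.72 and 12.48 in DT and 11.96, 12.30 and 12.27 in PBS. The groups did not overlap, and the difference was 0.50 (SE 0.17, adjusted p = 0.119). Atp5g3, which encodes the c subunit of the rotating ring, had 13.96, 14.09 and 13.91 in DT and 13.82, 13.59 and 13.77 in PBS, apart by a small gap (0.26, SE 0.15, adjusted p = 0.308). The catalytic beta subunit Atp5b (0.24) and Atp5o of the peripheral stalk (0.15) likewise lay apart. The alpha, delta and epsilon subunits Atp5a1, Atp5d and Atp5e lay between 0.01 and 0.19, each with PBS replicate 2 above all DT arrays.

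Averaged over its genes on each array and set against the PBS mean, complex V stood at 0.19, 0.24 and 0.19 in DT and at −0.12, 0.12 and −0.001 in PBS. Complex II stood at 0.33, 0.34 and 0.29 in DT against −0.09, 0.02 and 0.07 in PBS, mainly through Sdhd. These were the complexes whose groups lay apart. The groups also lay apart for all 50 members together, at 0.16, 0.16 and 0.12 in DT against −0.10, 0.08 and 0.01 in PBS. They did so too for the lists of further nuclear subunits, assembly factors and citric acid cycle enzymes. Complex I had 0.20, 0.13 and 0.09 in DT against −0.12, 0.10 and 0.02 in PBS, where DT replicate 3 fell below PBS replicate 2. Complex IV had 0.06, 0.19 and 0.17 in DT against −0.06, 0.10 and −0.04 in PBS, and complex III, −0.004, −0.02 and −0.06 in DT against −0.06, −0.002 and 0.06 in PBS, and both overlapped. Subunits are not replicates, so no test was made over them, and no difference between complexes was tested.

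**Figure D3:**
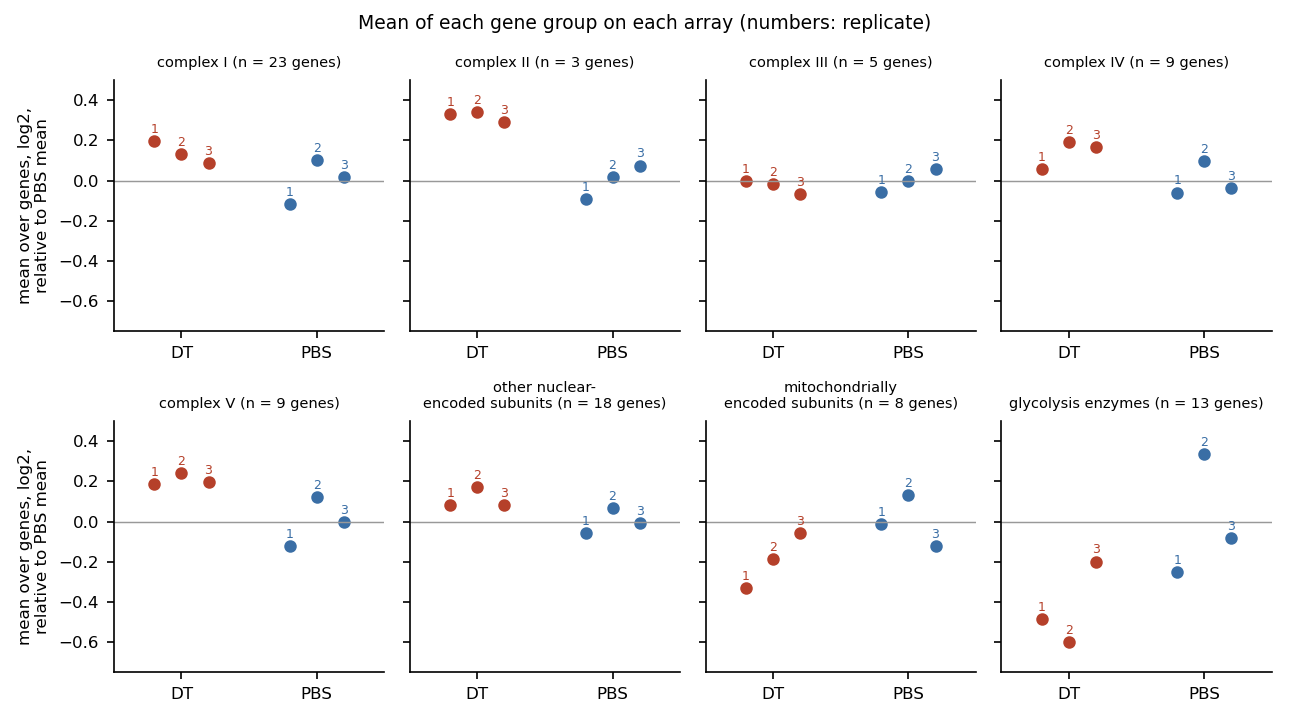
Mean normalised log2 signal of each gene group on each array, relative to the group's PBS mean, with DT left and PBS right and the replicate number beside each point. Complexes II and V and the other nuclear-encoded subunits lie higher on all DT arrays than on any PBS array, and the other groups drawn overlap. Of the 8 groups drawn, the glycolysis enzymes spread widest, from −0.60 on DT replicate 2 to 0.33 on PBS replicate 2.

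The members had 80 probes, of which 72 passed the filter, with 57 positive and 15 negative differences and a median of 0.20, beside 0.02 over all probes. Tested as single probes, 2 of the 72 passed, those of Sdhd and Uqcrq (1.35% of all 17759 probes passed). Of the 17 genes with several such probes, 12 had the same sign in all and 5 did not. Atp5a1, the alpha subunit of the catalytic head, disagreed most. Its bright probe had 11.06, 11.49 and 11.56 in DT and 10.82, 11.76 and 11.05 in PBS (0.16), while the other had 8.29, 7.69 and 8.38 in DT and 8.64, 9.35 and 8.80 in PBS (−0.81, adjusted p = 0.0922 over all probes). The groups overlapped in the bright probe and lay apart in the other.

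Ndufb8, an accessory subunit of the complex I membrane arm, had 12.47, 12.28 and 12.49 in DT and 12.35, 12.50 and 12.40 in PBS by its bright probe (−0.001). Its second probe had 7.21, 7.33 and 6.92 in DT and 6.36, 6.27 and 6.51 in PBS (0.77, adjusted p = 0.0539 in limma over all probes), without overlap. The difference by the second probe was about the size of that of Sdhd, though it did not pass. For Cox5b the bright probe had 13.00, 12.86 and 13.15 in DT and 13.02, 12.81 and 13.26 in PBS (−0.02), and the second gave 0.22. For Ndufs6 the bright probe had 11.30, 10.94 and 11.18 in DT and 11.11, 11.42 and 11.23 in PBS (−0.11), and the second gave 0.28. These overlapped and none passed. Atp5o agreed in sign but not in size, at 0.15, 0.22 and 0.79 (adjusted p = 0.0536 for the last).

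**Figure D4:**
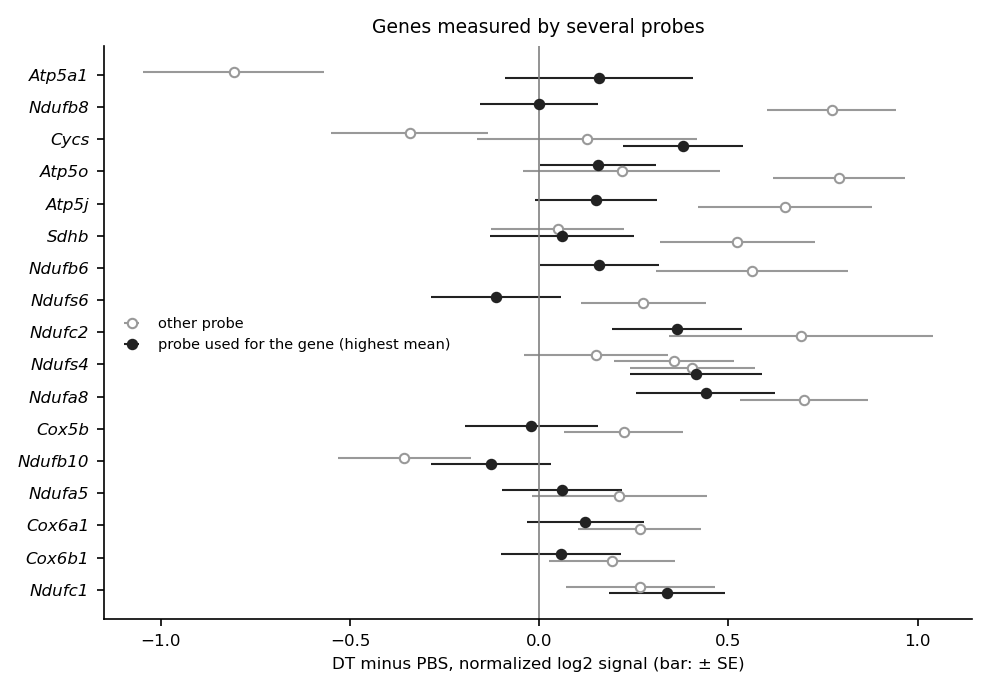
DT minus PBS difference with its SE for each probe of the 17 subunits measured by several probes, in normalised log2 signal. Filled points are the probes used for the gene and open points the others; Atp5a1 and Ndufb8 show the widest spread, from −0.81 to 0.16 and from −0.001 to 0.77.

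Genes around the chain were taken from lists built by function. Of 18 measured of 20 further nuclear subunits none passed, with a median of 0.08. In limma 2 had an unadjusted p under 0.05, with positive differences, beside 12.0% of all genes. Atp5pb, the b subunit of the peripheral stalk of complex V, gave 0.53 (adjusted p = 0.103) and Atp5l, a small membrane subunit of ATP synthase, gave 0.36 (adjusted p = 0.206). Of the 13 subunits encoded by mitochondrial DNA, 8 were measured, with a median of −0.18 and 6 negative differences. Of the 8, 1 passed as lower, beside 0.759% of all genes. That was the complex I subunit mt-Nd5, which fell, with 5.68, 5.77 and 5.68 in DT against 7.23, 6.33 and 6.81 in PBS (−1.08, SE 0.21, adjusted p = 0.0482). This call held in 6 of 15 alternatives, with adjusted p between 0.0144 and 0.551, and its size depended on the background step, at −0.63 with an offset of 50 and −0.43 with no correction. The median of the 8 was −0.06 without PBS replicate 2. Common-median scaling gave −0.03, but all genes then had a median of 0.17. Relative to the median of all genes, the list stood at −0.20 after that scaling and at −0.19 in the main setting. The brighter probes of mt-Nd1 (−0.22), mt-Nd4 (0.02) and mt-Cytb (−0.02) did not pass.

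In the main setting neither assembly factors nor carriers passed in any member. Assembly factors had a median of 0.17 over 35 measured of 43. In limma 7 had an unadjusted p under 0.05 with positive and 4 with negative differences, beside 12.0% and 11.9% of all genes. With an offset of 50, no background correction or an intensity trend, 1 passed as higher and 1 as lower. These settings called 2.78% to 3.76% of all genes higher and 3.10% to 4.38% lower. With the deposited values, a detection p under 0.01 or without DT replicate 3, 1 passed as higher (1.59%, 1.31% and 1.71% of all genes). Tmem126b, a complex I assembly factor, gave 0.76 (adjusted p = 0.0517), and Ttc19, which acts on complex III, gave −0.53 (adjusted p = 0.1). Carriers and porins had a median of 0.24 over 9 measured of 11, and none passed in any setting run. Vdac3, an outer-membrane porin, gave 0.52 and the phosphate carrier Slc25a3 gave 0.42. In limma 3 of the 9 had an unadjusted p under 0.05, with positive differences, beside 12.0% of all genes. Isoforms and regulators tied to tissue or oxygen had a median of −0.14 over 5 measured of 13, none past the threshold. In limma 1 had an unadjusted p under 0.05 with a positive and 1 with a negative difference, beside 12.0% and 11.9% of all genes. Cox6a2, the muscle form of a complex IV subunit, gave −0.74 (adjusted p = 0.0904) and the supercomplex factor Cox7a2l gave 0.58 (adjusted p = 0.126).

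The citric acid cycle list had a median of 0.13 over 15 measured of 18 genes, with none past the threshold in the main setting. In limma 4 had an unadjusted p under 0.05 with positive and 2 with negative differences, beside 12.0% and 11.9% of all genes. With an offset of 50, no background correction or an intensity trend, 2 passed as higher and 1 as lower. All genes gave 2.78% to 3.76% higher and 3.10% to 4.38% lower there. Deposited values gave 2 higher (1.59%). A detection p under 0.01 gave 1 either way (1.31% and 1.78%). The mean of probes gave 1 higher (0.401%), and leaving out DT replicate 3 gave 1 lower (2.25%). Dld, the dihydrolipoamide dehydrogenase shared by the 2-oxoacid dehydrogenases, gave 0.90 (adjusted p = 0.0509), and Pdhb, a subunit of pyruvate dehydrogenase, gave −0.79 (adjusted p = 0.0573). Mitochondrial transcription and biogenesis genes had a median of −0.16 over 18 measured of 19, none past the threshold. In limma 2 had an unadjusted p under 0.05, with positive differences, beside 12.0% of all genes. The list median was 0.01 after scaling to a common median, where that of all genes was 0.17. Tefm, the mitochondrial elongation factor, gave 0.79 (adjusted p = 0.0621), and Tfam, which packages and transcribes mitochondrial DNA, gave 0.57 (adjusted p = 0.106).

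Glycolysis enzymes had mostly negative differences. Of 13 measured of 18 listed, 12 had negative differences, with a median of −0.43, and none passed. In limma 7 had an unadjusted p under 0.05, all with negative differences, beside 11.9% of all genes. Pfkl, the liver form of phosphofructokinase, gave −0.93 (adjusted p = 0.0874) and the glucose transporter Slc2a1 gave −0.997 (adjusted p = 0.103). The mean of the list per array was −0.49, −0.60 and −0.20 in DT and −0.25, 0.33 and −0.08 in PBS, and the groups overlapped. The difference between this list and the respiratory subunits was not tested.

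Markers of other cells also differed between the groups on these arrays. Of 7 measured of 12 neutrophil markers, 3 passed as higher in DT (limma), beside 0.327% of all genes. The list mean of the 7 per array was 1.54, 1.16 and 0.76 in DT against 0.30, −0.05 and −0.25 in PBS. The filter also admits genes above background only on the 3 DT arrays. The list median was 1.498 over the 7, and 0.63 with no filter over the 11 on the array. All 3 calls were lost without PBS replicate 2, without DT replicate 2 and with no filter, and 1 was made without DT replicate 1. The other alternatives called 3 to 5 as higher, beside 0.0844% to 3.76% of all genes. Fibroblast and stellate cell markers had a median of 0.38 over 10 measured of 12, with Dpt, a matrix protein, past the threshold (1.74, adjusted p = 0.00671 in limma), a list call lost without DT replicate 2 and with no filter. The list mean of the 5 measured hepatocyte markers was 0.09, −0.14 and 0.20 in DT against 0.05, 0.27 and −0.32 in PBS, and overlapped. Of the 3 measured T and NK cell markers, Prf1 fell (−1.11), a call lost with the replicate block, common-median scaling or no filter and without PBS replicate 1 or 2 or DT replicate 1 or 2. Of the endothelial (2 measured of 10) and erythroid (3 measured of 8) markers none passed, with medians of −0.26 and −0.69. The part of these cells and of macrophages in the subunit values was not tested.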

How the data were processed

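Each probe and array has 3 deposited values, per the file headers: the authors' mean bead signal, a linear intensity that is not normalised, a detection p-value and a normalised log2 value; how the deposited log2 values were made is not given in the sources used here, and they served as an alternative. Sorting, Trizol extraction and oligo-dT amplification are per the labels' protocols. Probes were named from the platform annotation with symbols updated through Entrez identifiers: 34885 had 1 gene, 18 several and 10378 none.

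Signals were corrected with neqc (limma 3.58.1, R 4.3.3; normexp background from the detection p-values, offset 16, quantile normalisation, log2), which shrinks differences of dim genes and removes any common shift. The filter kept the 17759 probes whose detection p was below 0.05 on 3 or more of the 6 arrays, and the probe with the highest mean stood for each of 9483 genes. The comparison of DT against PBS used lmFit and eBayes, two-sided, with Benjamini-Hochberg adjustment over all genes and a threshold of 0.05; differences are DT minus PBS on the log2 scale. The number of arrays limits the precision. With 3 arrays against 3, an exact permutation test cannot give a p below 0.1.

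The members, the other lists and the tests were chosen with earlier results of these data known. Values on every array are given for members past the threshold, for the 2 smallest p-values of each complex and for Cycs. They are also given for members whose probes disagree in sign. The 2 smallest p-values are named for each other list of nuclear genes except the cell type markers. Of those markers only Dpt and Prf1, which passed, are named with a difference, and the neutrophil genes that passed are not named. Other members are named with their difference, and Ndufv1 and Ndufb9 with all values, after these were seen. Same-numbered DT and PBS arrays did not deviate together (correlations −0.10, −0.18 and 0.03 for numbers 1 to 3), so the numbers were not taken as pairs. Alternatives covered background correction, normalisation, the deposited values, the filter, the probe rule, an intensity trend, a replicate block and each array left out. Sequences are RefSeq's; figures were drawn with matplotlib 3.10.9.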

Additional observations from a re-analysis of the deposited data

How the results depend on the processing

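Without a filter on dim probes and with scaling to a common median, 0 members passed in either direction (limma). At an unadjusted p under 0.05 there were 14 higher and 3 lower without a filter, beside 2942 of all 19057 genes. With scaling there were 2 higher and 1 lower, beside 583 of 9483 genes. With the replicate number as a block, 0 members passed in either direction (limma), Sdhd having an adjusted p of 0.0883 and Uqcrq of 0.0623. Unadjusted there were 6 higher and 1 lower, beside 2021 of 9483 genes. In all, 30 genes passed with the block, and the replicate numbers share no recorded source. The members called higher were 2 with a normexp offset of 50 (3.44% of all genes higher), 3 with no background correction (2.78%) and 4 with an intensity trend (3.76%). Leaving out each array in turn gave between 0 and 1 higher and between 0 and 1 lower, the calls lasting only without DT replicate 3. Calls over all genes were 103 (31 higher, 72 lower), against 699 with the offset of 50, 558 with no background correction, 27 with common-median scaling (20 higher, 7 lower), 313 with the deposited values, 0 with no filter (2942 at an unadjusted p under 0.05), 264 with the stricter filter, 772 with the trend and, without 1 array, between 0 and 375 (1284 unadjusted where it was 0, without DT replicate 2).

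Common-median scaling moved the median of all genes to 0.17 and that of the members to 0.38, or 0.22 above it (47 of 50 positive, beside 68.6% of all genes), with complex I at 0.37, II at 0.35, III at 0.49, IV at 0.30 and V at 0.40. The deposited values gave 0.23 for the members, 0.21 for complex II and 0.34 for complex III; no filter gave 0.12 for complex III and the mean of probes 0.21 for complex II. Without 1 array the medians ranged from 0.12 to 0.20 (members), 0.094 to 0.20 (I), 0.088 to 0.25 (II), 0.21 to 0.38 (III), 0.073 to 0.20 (IV) and 0.16 to 0.26 (V). For the other lists they ranged from 0.026 (without PBS replicate 1) to 0.15 (further nuclear subunits), −0.25 to −0.06 (mitochondrially encoded), 0.12 to 0.21 (assembly factors), 0.097 (without PBS replicate 2) to 0.32 (carriers and porins), 0.12 to 0.20 (citric acid cycle), −0.34 (without PBS replicate 3) to −0.10 (isoforms), −0.21 to −0.074 (without DT replicate 2; transcription and biogenesis), −0.58 to −0.28 (without PBS replicate 2; glycolysis) and −1.06 (without PBS replicate 3) to −0.45 (erythroid markers). The causes were not tested.

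Signs turned in 5 of the 15 members named by rule, none of which had passed: Cox5b (0.20 scaled, 0.051 deposited, 0.10 mean of probes, −0.13 to 0.092 without 1 array, turned without PBS replicate 3 or DT replicate 2), Ndufb8 (0.24, 0.094 and 0.39, −0.039 to 0.066, turned without PBS replicate 2 or DT replicate 2), Ndufs6 (0.093 scaled, 0.081 mean of probes), Atp5a1 (−0.32 mean of probes, −0.038 to 0.43, turned without PBS replicate 1) and Sdhc (−0.0092 to 0.25, turned without PBS replicate 2 or DT replicate 1). The direction of the other 10 and of the 5 complex medians held in every alternative run. These signs are not relative to the median of all genes, which was 0.17 with scaling. With scaling Ndufs6 lay below that median, and Cox5b and Ndufb8 lay above it.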
